A study of Mus musculus with 3 samples.

Results

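Distal lung cells high in both an alveolar type 1 and an alveolar type 2 score were picked out of the epithelium of mouse embryos at E14.5, and 178 of 5976 distal barcodes qualified, out of 12967 barcodes in all. Score A was the share of a barcode's unique molecules (UMIs) that came from Hopx, Clic5, Ager or Akap5, and score B the share from Sftpa1, Sftpb or Cxcl15. A barcode counted as distal epithelium with at least 5000 UMIs, at most 10% mitochondrial UMIs, at least 3 Epcam UMIs, fewer than 10 UMIs of the complement genes C1qa, C1qb and C1qc, and 0 UMIs of the airway factor Sox2. A score was called high above the 75th percentile of the distal barcodes of the same library, which gave the both-high barcodes and, beside them, barcodes high in A only, in B only or in neither. The members were thus chosen by the levels of these 7 genes, so those levels are given as a description without a test.

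The study used C57/B6 embryos from 2 females, whose lungs were pooled, dissociated, and stained for Epcam, a surface protein of epithelium, and Icam1, a cell adhesion protein. Cells were sorted as Epcam+ Icam+ (2 libraries) or as Epcam+ (1 library) and run on 10x Genomics 3' single-cell sequencing. Whether each library had its own pool of lungs is not stated in the labels. The p-values reflect how class differences varied among the 3 libraries, a spread that may be technical. The distal barcodes numbered 2037 and 1789 in the Epcam+ Icam+ libraries, with 2150 in the Epcam+ library, from 74170599 and 67843828 UMIs and from 84460347 UMIs in all. The Epcam+ Icam+ libraries shared 3 barcode sequences with each other, and the second of them shared 1 with the Epcam+ library.

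In the mature lung, flat type 1 cells carry gas exchange, whereas cuboidal type 2 cells make and secrete surfactant, the lipid and protein film that keeps alveoli from collapsing. Both descend from the Sox9-positive tips of the branching airways, and cells with genes of both programmes have been described in the fetal mouse lung as candidate bipotent progenitors. NKX2-1 is a transcription factor of the whole lung epithelium that acts on genes of both cell types. On the type 1 side of the rule, Hopx encodes a homeodomain-only protein, Clic5 a chloride channel family protein linked to the cytoskeleton, Ager the receptor for advanced glycation end products and Akap5 an anchoring protein for protein kinase A. On the type 2 side, Sftpa1 and Sftpb encode surfactant proteins A and B and Cxcl15 encodes lungkine, a chemokine of lung epithelium.

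The promoters of the rule's genes are shown because the 2 sides share a lung epithelial regulator. In the annotation of build mm10 Hopx lies at chr5:77086988-77115121, Clic5 at chr17:44188584-44280172, Ager at chr17:34597862-34600936 and Akap5 at chr12:76324891-76334153. Sftpa1 lies at chr14:41131782-41136452, Sftpb at chr6:72304610-72314371 and Cxcl15 at chr5:90794534-90803067. All 7 had a promoter in the RefSeq table of GRCm38.p6, and the core NKX2-1 motif CTCAAG (or CTTGAG, its reverse complement) was searched on both strands from 250 bases before to 50 bases after the start. It was found in 15.9% of the 32851 promoters of that length, so single matches are frequent. Sftpb held 2 matches, Sftpa1 and Cxcl15 held 1 each, the 2 Hopx entries held 1 each, and Clic5, Ager and Akap5 held 0. The core TEAD motif GGAATG (or CATTCC), present in 14.7% of promoters and searched because YAP and TEAD act in type 1 cells, matched none of them. The 250 bases before the start of 3 of these genes, at chr6:72304360-72304609 (plus strand), chr14:41131538-41131787 (plus strand) and chr5:77115124-77115373 (minus strand), read 5′ to 3′ as follows, with the NKX2-1 core in capitals.
Sftpb: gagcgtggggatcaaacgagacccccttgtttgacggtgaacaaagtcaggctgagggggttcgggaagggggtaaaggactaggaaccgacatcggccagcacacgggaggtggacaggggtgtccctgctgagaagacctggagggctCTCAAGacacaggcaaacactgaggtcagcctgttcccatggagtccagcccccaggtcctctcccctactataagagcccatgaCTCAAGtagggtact
Sftpa1: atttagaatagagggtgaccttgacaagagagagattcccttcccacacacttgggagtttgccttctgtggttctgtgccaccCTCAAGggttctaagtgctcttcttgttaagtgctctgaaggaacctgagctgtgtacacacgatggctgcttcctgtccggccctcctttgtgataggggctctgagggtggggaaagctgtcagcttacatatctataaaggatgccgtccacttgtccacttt
Hopx: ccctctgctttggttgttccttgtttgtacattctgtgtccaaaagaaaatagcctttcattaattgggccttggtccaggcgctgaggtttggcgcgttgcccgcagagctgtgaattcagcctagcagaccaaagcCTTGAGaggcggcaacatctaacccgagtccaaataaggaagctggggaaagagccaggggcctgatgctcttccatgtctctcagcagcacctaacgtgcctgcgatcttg
The surfactant promoters thus carry the core on the plus strand of the gene, at 100 and 15 bases before the start in Sftpb and 166 bases before it in Sftpa1. The Hopx promoter carries the reverse complement 112 bases before its start. A match of letters does not show binding.

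Both-high barcodes were fewer than the separate shares of A-high and B-high barcodes would give in every library. There were 68 and 40 in the Epcam+ Icam+ libraries, with 70 in the Epcam+ library, against 127, 112 and 135 expected from the product of the 2 shares. The observed number was 0.535 (95% exact interval 0.417 to 0.675) and 0.358 (0.257 to 0.486) of that expected in the Epcam+ Icam+ libraries, with 0.520 (0.407 to 0.654) in the Epcam+ library. In shares of distal barcodes they made up 3.34% and 2.24% in the Epcam+ Icam+ libraries, with 3.26% in the Epcam+ library, against 6.24%, 6.24% and 6.26% expected. The intervals cover counting error only. Across all distal barcodes the 2 scores ran against each other, at a Spearman's rho of -0.219 and -0.279 in the Epcam+ Icam+ libraries, with -0.194 in the Epcam+ library. That is a description over barcodes of 1 library each, in which both scores share the barcode's total as denominator. When A was counted on a random 50% of each barcode's UMIs and B on the rest, so that no molecule served both, the ratios were 0.645, 0.385 and 0.594. At the stricter 90th percentile only 4 and 1 both-high barcodes were left in the Epcam+ Icam+ libraries, with 3 in the Epcam+ library, at 0.196, 0.0558 and 0.140 of those expected.

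**Figure D1:**
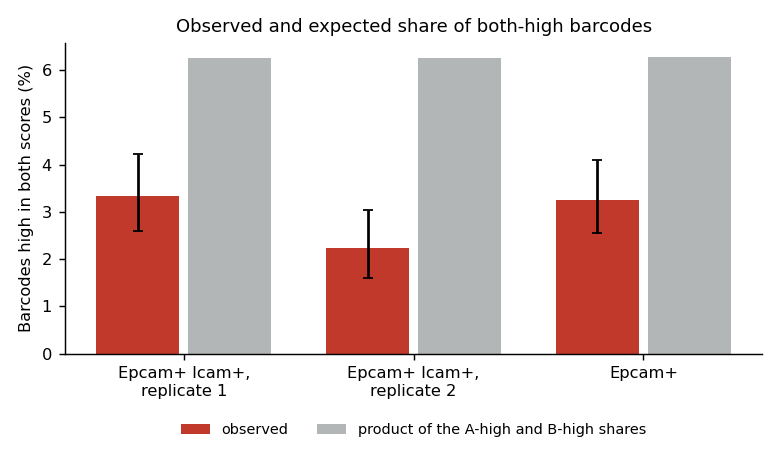
Share of distal barcodes high in both scores (red, observed, with 95% exact binomial intervals) and the share expected from the product of the A-high and B-high shares (grey) in each library. The observed shares of 3.34%, 2.24% and 3.26% lie below the expected 6.24%, 6.24% and 6.26%.

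The median scores of both-high barcodes lay above the thresholds, below the A-only median for A and below the B-only median for B. In CPM (UMI counts scaled to the same total in every barcode or class), the threshold of A was 782 and 744 CPM in the Epcam+ Icam+ libraries, with 201 in the Epcam+ library, and that of B was 77.6, 92.8 and 324. Median A of both-high barcodes was 958, 901 and 250 CPM, against 1031, 1034 and 273 CPM in A-only barcodes. Their median B was 139, 136 and 434 CPM, against 240, 262 and 478 CPM in B-only barcodes. Values at the edges of the classes lie beside the thresholds by the way the classes are made. The lowest both-high A values were 791, 748 and 202, and the highest A values among B-only barcodes, just outside, were 781, 740 and 199.8. For B the lowest both-high values were 78.1, 93.4 and 324, and the highest values among A-only barcodes were 73.2, 92.7 and 321. In molecules, a both-high barcode had a median of 22.5 (range 5 to 50) and 19 (5 to 39) UMIs of the 4 A genes in the Epcam+ Icam+ libraries, with 7 (3 to 22) in the Epcam+ library. It had a median of 3 (1 to 25) and 3 (1 to 16) UMIs of the 3 B genes in the Epcam+ Icam+ libraries, with 13 (6 to 33) in the Epcam+ library. In the Epcam+ Icam+ libraries 24 of 68 and 18 of 40 both-high barcodes had at most 2 UMIs of the B genes, and in the Epcam+ library none of 70 did. Membership in the Epcam+ Icam+ libraries therefore rested on few surfactant molecules, and membership in the Epcam+ library on few type 1 molecules.

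**Figure D2:**
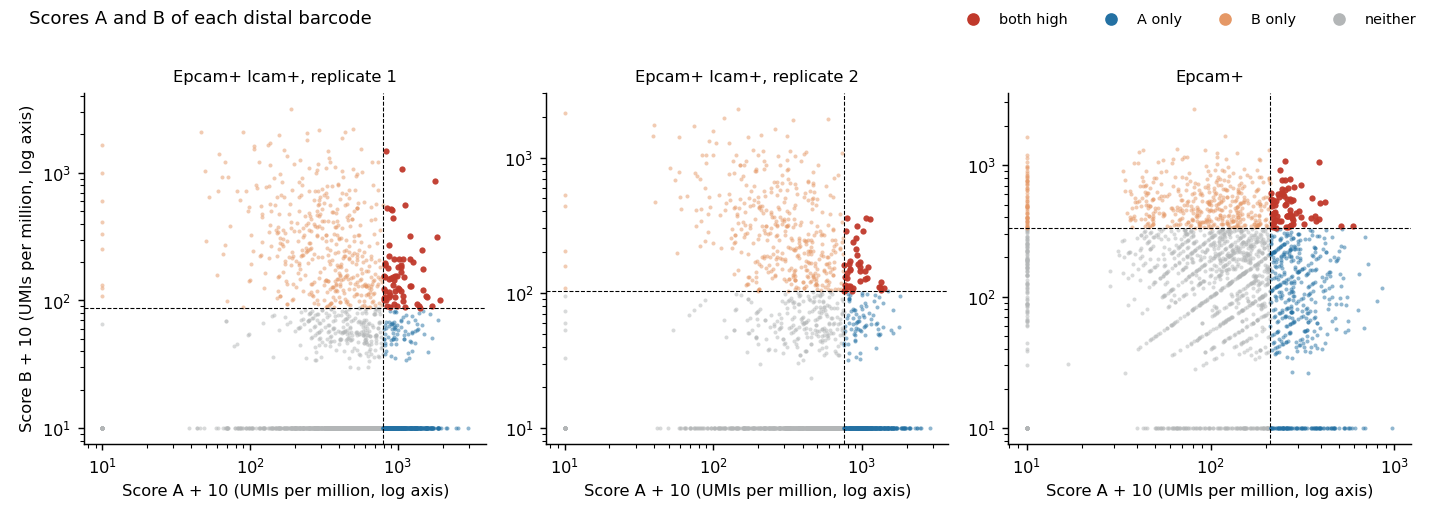
Score A against score B for each distal barcode in the 3 libraries, in CPM plus 10 on log axes, with the thresholds as dashed lines. Both-high barcodes (red) sit in the upper right corner, above both thresholds, and many A-only and neither barcodes of the Epcam+ Icam+ libraries have no B molecule at all.

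By the 4 marker genes Hopx, Clic5, Sftpb and Sftpa1, most both-high barcodes met the name of the class in the Epcam+ Icam+ sort, and fewer did in the Epcam+ sort. A UMI of Hopx or Clic5 together with a UMI of Sftpb or Sftpa1 was found in 49 of 68 (72.1%) and 29 of 40 (72.5%) both-high barcodes of the Epcam+ Icam+ libraries, and in 22 of 70 (31.4%) of the Epcam+ library. In A-only barcodes these shares were 6.58%, 6.88% and 19.0%, and in B-only barcodes 62.4%, 65.1% and 23.5%. The 95% exact intervals of the both-high shares (59.9% to 82.3%, 56.1% to 85.4% and 20.9% to 43.6%) include the B-only shares. Median depth was 21948.5, 20131.5 and 27271.5 UMIs in both-high barcodes, 19509, 19920 and 25924 in A-only barcodes and 25142, 26524 and 30514 in B-only barcodes, the deepest of these in every library. In the Epcam+ library Clic5 had 0 UMIs in all 70 both-high barcodes, and Ager supplied 75.3% of their A molecules, against 36.1% and 38.2% in the Epcam+ Icam+ libraries. With Ager left out of A, an alternative added after this was seen, the ratio of observed to expected barcodes was 0.795 in the Epcam+ library, and 0.598 and 0.439 in the Epcam+ Icam+ libraries.

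Levels of the rule's genes are given in CPM of the summed barcodes. In the Epcam+ Icam+ libraries Hopx and Akap5 were nearer to their A-only than to their B-only level. The surfactant genes were below their B-only level there. Hopx stood at 338 and 280 CPM in both-high barcodes, 350 and 338 CPM in A-only barcodes and 89.7 and 80.0 CPM in B-only barcodes of the Epcam+ Icam+ libraries. Akap5 stood at 261 and 259 CPM in both-high barcodes there, above the 219 and 231 CPM of A-only barcodes. Clic5, at 39.0 and 29.9 CPM, lay between A-only (64.5 and 65.4) and B-only barcodes (6.18 and 3.55), and so did Ager at 360 and 351 CPM. On the surfactant side, Sftpb had 82.4 and 66.8 CPM in both-high barcodes, 2.66 and 2.98 CPM in A-only barcodes and 159 and 163 CPM in B-only barcodes. Sftpa1 had 31.7 and 25.3 CPM in both-high barcodes, 1.11 and 1.07 CPM in A-only and 125 and 128 CPM in B-only barcodes. In these counts, which also chose the barcodes, the surfactant protein genes stayed well below their B-only level. Cxcl15 came closer in them, at 90.9 and 70.3 CPM against 105 and 107 CPM in B-only barcodes. In the Epcam+ library Hopx was at 15.8 CPM in both-high barcodes against 16.01 CPM in A-only barcodes, and Akap5 at 49.3 against 50.6 CPM. Sftpb was there at 232 CPM in both-high barcodes against 291 CPM in B-only barcodes, and Sftpa1 at 114 against 146 CPM.

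**Figure D3:**
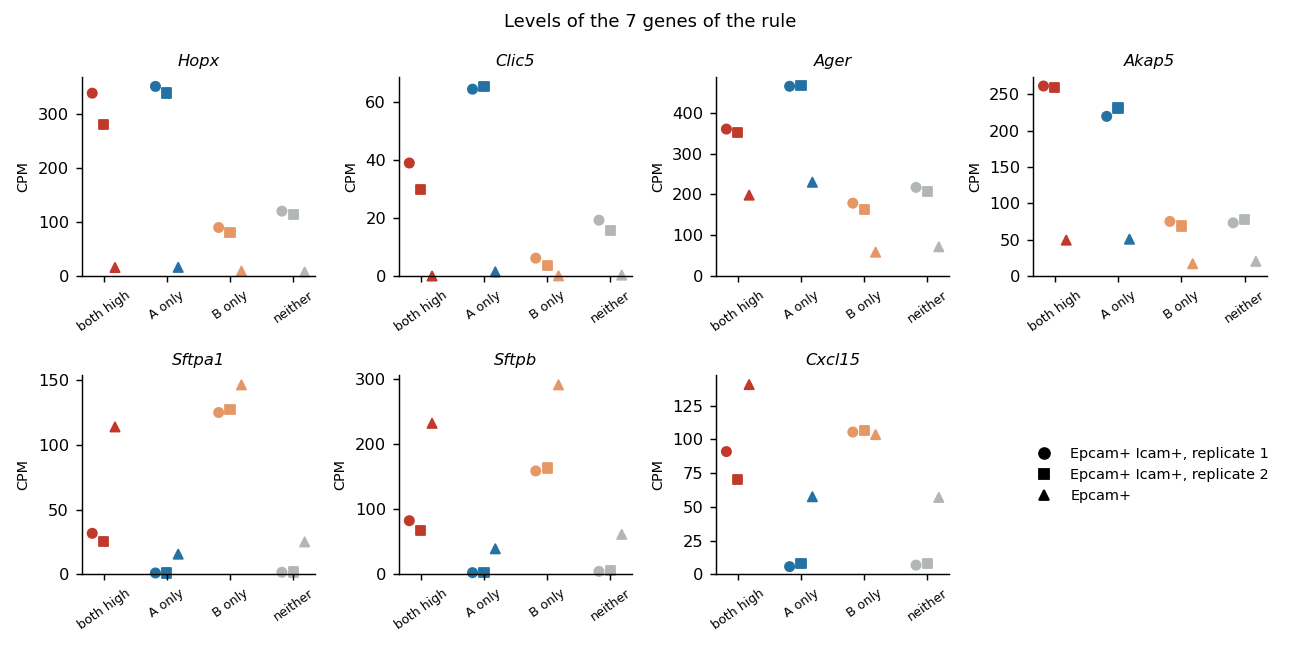
Levels in CPM of the 7 genes of the rule, summed over the barcodes of each class (colours, both-high barcodes on the left) in each library (marker shapes). In the Epcam+ Icam+ libraries Hopx is nearer to its A-only than to its B-only level in both-high barcodes and Sftpa1 is far below its B-only level.

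Choosing barcodes by these counts raises the counts chosen on, so the scores were also read in molecules the choice had not used. Classes were made from a random 50% of each barcode's UMIs, which gave 70 and 51 both-high barcodes in the Epcam+ Icam+ libraries, with 83 in the Epcam+ library, and levels were taken from the rest. Score A was then 873 and 725 CPM in both-high barcodes of the Epcam+ Icam+ libraries and 181 CPM in the Epcam+ library, against 970, 981 and 226 CPM in A-only and 366, 339 and 96.8 CPM in B-only barcodes. Score B was 228, 88.3 and 385 CPM in both-high barcodes, against 18.7, 20.0 and 133 CPM in A-only and 361, 391 and 492 CPM in B-only barcodes. In the unused molecules both scores of both-high barcodes thus lay between those of A-only and B-only barcodes in every library. For single genes in the Epcam+ Icam+ libraries, Cxcl15 had 103 and 30.1 CPM in both-high barcodes, against 88.8 and 103 CPM in B-only barcodes. It was thus above that level in the first library and far below it in the second. Sftpb had 91.6 and 47.0 CPM, against 150 and 160 CPM in B-only barcodes. Hopx had 275 and 195 CPM, against 309 and 299 CPM in A-only barcodes, and Akap5 207 and 194 against 195 and 206 CPM.

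The same genes were read in macrophage-like barcodes, as a measure of free RNA. Thinned to 5000 UMIs each, 77.9% and 70.0% of both-high barcodes in the Epcam+ Icam+ libraries held a Hopx UMI and 15 of 68 (22.1%) and 10 of 40 an Sftpb UMI. In barcodes with at least 10 C1q UMIs and fewer than 3 Epcam UMIs, the shares were 3.51% and 3.14% for Hopx and 0.501% and 0.524% for Sftpb, at median depths of 22228 and 23403.5 UMIs. In the Epcam+ library 8.57% of both-high barcodes held a thinned Hopx UMI and 58.6% an Sftpb UMI, and none of 36 C1q barcodes (median 24390 UMIs) did for either, which allows up to 9.74%. These barcodes were not free of epithelial RNA, since 27.8% and 26.4% of them in the Epcam+ Icam+ libraries, with 69.4% in the Epcam+ library, held an Epcam UMI before thinning. The Hopx share of the Epcam+ library is not separable from that background at this depth. Median doublet scores of both-high barcodes were 0.0551 and 0.0539 in the Epcam+ Icam+ libraries, with 0.0785 in the Epcam+ library, against 0.0589, 0.0565 and 0.0832 in A-only barcodes and 0.0493, 0.0515 and 0.0742 in B-only barcodes. Among both-high barcodes 3 of 68, 0 of 40 and 2 of 70 were among the highest-scoring barcodes. These scores compare a barcode with simulated mixtures and need not detect a pair of closely related distal cells, whose part in the class was not tested.

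Markers of other cell types were summed in both-high barcodes. The highest sum was that of the smooth muscle list, with 193, 146 and 115 CPM in both-high barcodes, 314, 237 and 98.7 CPM in A-only, 113, 94.5 and 53.1 CPM in B-only and 228, 196 and 89.8 CPM in barcodes high in neither. Nearly all of it was Tagln, a gene of an actin-binding protein, at 191, 141 and 109 CPM in both-high barcodes, and its part in the results was not tested. Airway markers summed to 17.7 and 1.15 CPM in the Epcam+ Icam+ libraries, with 8.38 CPM in the Epcam+ library, and 5 of 9 (Cyp2f2, Krt5, Scgb1a1, Scgb3a1 and Trp63) had no UMI in any of them. Mesenchymal markers summed to 4.27, 0 and 3.94 CPM with 4 of 8 at 0 UMIs, and endothelial markers to 1.83, 2.30 and 0.493 CPM with 3 of 6 at 0 UMIs. The 8 immune markers summed to 58.0, 9.21 and 20.2 CPM in both-high barcodes. A single both-high barcode of the first Epcam+ Icam+ library carried 81 of the 95 immune UMIs of its class there.

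Genes outside the rule were compared between the classes with edgeR's quasi-likelihood test, with library as a block and a Benjamini-Hochberg adjusted p under 0.05 as the threshold. Against A-only barcodes, which share the type 1 side, both-high barcodes had higher type 2 genes and lower genes of a keratin and annexin group. Of 12748 genes tested 171 (1.34%) were called, of which 58 (0.455%) were higher and 113 (0.886%) lower in both-high barcodes. With RLE in place of TMM scaling the split was 97 higher and 85 lower, and the total was 13 without the first Epcam+ Icam+ library, 23 without the second and 391 without the Epcam+ library. Genes of the same programme go together across cells, so a higher type 2 gene here is not independent of the rule's use of Sftpa1, Sftpb and Cxcl15.

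On the type 2 side, 4 of the 15 tested type 2 markers outside the rule rose against A-only barcodes and none fell, with a list median of 0.79 on the log2 scale, against -0.03 over all genes. Sftpc, which encodes surfactant protein C and lies at chr14:70520949-70524081 in mm10, had 9064 and 10669 CPM in both-high barcodes of the Epcam+ Icam+ libraries and 3798 CPM in the Epcam+ library, against 3096, 3623 and 2772 CPM in A-only barcodes. It was higher in all 3 libraries, by 1.11 on the log2 scale (SE 0.212, adjusted p = 0.0139 in edgeR). On the scale that runs from its A-only level to its B-only level, the both-high level stood at 59.6% and 72.1% in the Epcam+ Icam+ libraries, and was 175% in the Epcam+ sort, where it exceeded both. Egfl6, which encodes a secreted matrix protein with EGF repeats, had 118, 161 and 105 CPM in both-high barcodes, against 56.3, 61.6 and 52.4 CPM in A-only barcodes (log2 1.09, SE 0.135, edgeR adjusted p = 0.000554). Lpcat1, an enzyme that makes surfactant phosphatidylcholine, was higher by a log2 of 0.79, and Ctsh, a cathepsin that processes surfactant proteins, by 0.59. Ctsh had 288, 284 and 114 CPM in both-high barcodes and 199, 199 and 61.4 CPM in A-only barcodes. Its both-high level lay 46.2%, 42.0% and 49.0% of the way to that of B-only barcodes.

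Several genes that are not on that list rose with the type 2 genes. Dlk1, an imprinted gene for a membrane protein related to Notch ligands, had 314 and 348 CPM in both-high barcodes of the Epcam+ Icam+ libraries and 844 CPM in the Epcam+ library, against 103, 111 and 412 CPM in A-only barcodes (log2 1.33, SE 0.218, edgeR adjusted p = 0.00537). In each library its level was higher in both-high than in A-only barcodes. Dram1, a lysosomal membrane protein of autophagy, was higher by a log2 of 1.53, with 67.1, 58.7 and 52.3 CPM in both-high barcodes against 20.9, 25.9 and 15.5 CPM in A-only barcodes. Also higher were Lrrc8c (volume-regulated anion channel subunit, log2 1.05), Mical1 (actin-oxidising enzyme, 1.05), Slco2a1 (prostaglandin transporter, 0.95), Bex2 (0.95), Slc1a3 (glutamate transporter, 0.80) and Areg (ligand of the EGF receptor, 0.80). Of 14 tested distal tip markers 3 rose and none fell. These were Wnt7b, a Wnt ligand of the lung epithelium (log2 0.55), Id2, a tip-cell inhibitor of DNA binding (0.49), and Clu (0.44). Sox9, the tip factor itself, had 50.6, 74.9 and 90.7 CPM in both-high barcodes and 51.4, 47.0 and 59.5 CPM in A-only barcodes and did not pass the test (log2 0.37, edgeR adjusted p = 0.189).

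Lower than in A-only barcodes were genes of several kinds. Cdkn1c, the imprinted inhibitor p57 of cyclin-dependent kinases, had 741 and 731 CPM in both-high barcodes of the Epcam+ Icam+ libraries and 315 CPM in the Epcam+ library, against 1330, 1212 and 570 CPM in A-only barcodes. Relative to A-only barcodes it differed by -0.85 on the log2 scale (SE 0.0757, adjusted p = 3.8e-05 in edgeR), and the both-high level was close to the 638, 638 and 318 CPM of B-only barcodes. Sprr1a, a small proline-rich protein of squamous epithelium, was lower by a log2 of -1.73, with 55.5, 50.7 and 1.97 CPM in both-high barcodes and 146, 169 and 9.83 CPM in A-only barcodes. The matrix protein gene Smoc2 (-1.12), the metalloproteinase Mmp23 (-1.05), the ligand Tgfb3 (-1.02), the potassium channel Kcnk2 (-1.01), Rec8 (-0.90), Pdzk1ip1 (-0.89) and the tight junction gene Cldn10 (-0.85) were also lower.

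Among the lists, 7 of 20 genes of a keratin-high transitional state fell and 1, Areg, rose, with a median of -0.35. The calcium-binding protein genes S100a6 (-0.71), Anxa1 (-0.63) and Anxa2 (-0.40) and the keratin gene Krt8 (-0.24, edgeR adjusted p = 0.0221) were among those that fell. Krt8 had 625, 701 and 491 CPM in both-high barcodes, against 758, 729 and 586 CPM in A-only barcodes. Of 16 type 1 markers outside the rule, 2 fell and none rose, with a median of -0.16. These were Emp2, a tetraspan membrane protein (-0.45), and Krt7 (-0.33). Genes that respond to tissue dissociation fell in 5 of 14 cases, among them Egr1 (-1.07), Fos (-0.49), Btg2 (-0.33) and Atf3 (-0.28), so handling genes moved along with this contrast. With thinned classes the sign of Fos turned (0.051), and Egr1 (-0.71) and Atf3 (-0.21) were not called. Their part in the other differences was not tested. Nkx2-1 had 232, 240 and 254 CPM in both-high barcodes and 225, 217 and 245 CPM in A-only barcodes, and its log2 difference of 0.03 (SE 0.0567) was not called. The lists for lung epithelial transcription factors, surfactant lipid and sterol synthesis, YAP targets, the TGF-beta response, S phase and G2 and mitosis had no called member.

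**Figure D4:**
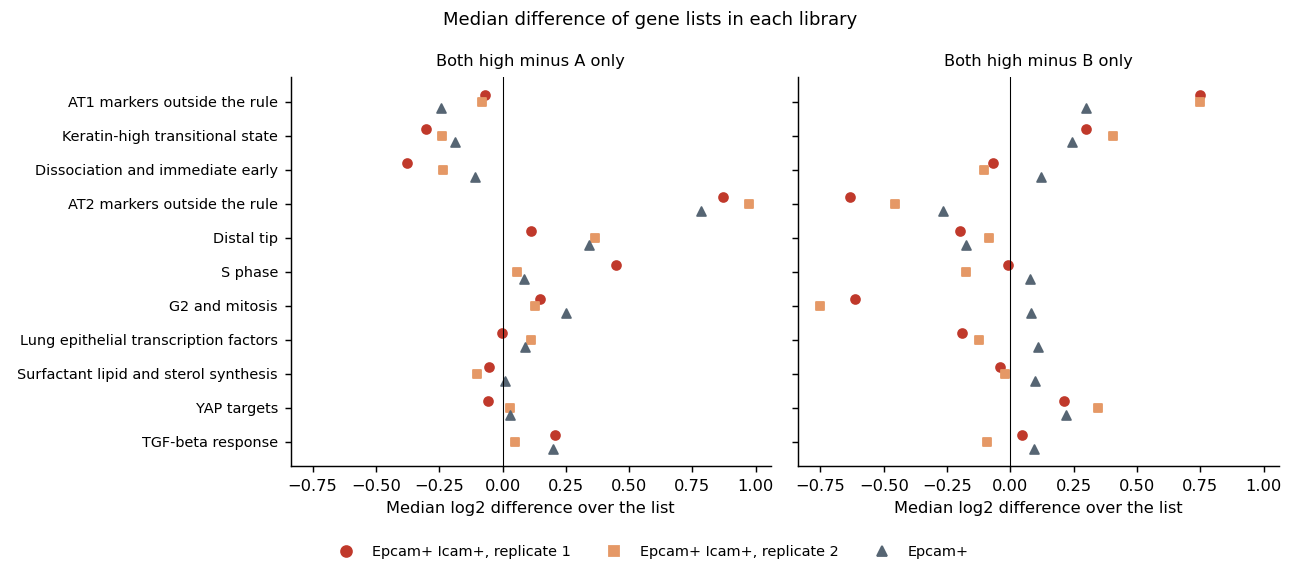
Median log2 difference over the tested genes of 11 lists in each library, for both-high minus A-only barcodes (left) and both-high minus B-only barcodes (right). Type 2 markers lie above 0 on the left and below it on the right in all 3 libraries, type 1 markers below 0 on the left and above it on the right, and the G2 and mitosis list parts the 2 sorts on the right.

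Against B-only barcodes, which share the type 2 side, the type 1 markers were higher and a few tip and proliferation genes lower. Of 12748 genes 307 (2.41%) were called, 141 (1.11%) higher and 166 (1.3%) lower in both-high barcodes. RLE scaling gave 162 higher and 76 lower, and the total was 8 without the first Epcam+ Icam+ library, 15 without the second and 682 without the Epcam+ library. Of 16 type 1 markers outside the rule, 7 rose and none fell, and the list median was 0.56 against -0.05 over all genes. A higher type 1 gene here is likewise not independent of the rule's use of Hopx, Clic5, Ager and Akap5. Emp2 had 259 and 230 CPM in both-high barcodes of the Epcam+ Icam+ libraries and 33.0 CPM in the Epcam+ library, against 138, 115 and 17.2 CPM in B-only barcodes (log2 0.91, SE 0.0712, edgeR adjusted p = 2.64e-06). Higher too were the basement membrane collagen genes Col4a3 (1.49) and Col4a4 (0.83) and the junction protein gene Lmo7 (1.02). Col4a3 shares 563 exonic bases with a gene on the opposite strand, and the strand setting of the counting is not given in the sources used here.

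Outside that list, Clic3, of the same protein family as Clic5, had 132, 109 and 7.89 CPM in both-high barcodes, against 48.9, 35.7 and 5.08 CPM in B-only barcodes (log2 1.40, SE 0.128, edgeR adjusted p = 1.38e-05). The small heat shock protein gene Cryab rose by a log2 of 1.55, the secreted guidance factors Sema3a by 1.45 and Sema3e by 0.94, the calcium-activated chloride channel Ano1 by 1.09 and Pdlim2 by 1.06. The peptide gene Edn3 rose by 0.92. Cldn4, a tight junction gene, and the keratin genes Krt19 and Krt18 rose by 0.34, 0.44 and 0.22, and they were the called members of the keratin-high list of 20 tested genes. In the YAP list 1 of 10 genes rose, the factor gene Tead1 itself (0.51).

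Dlk1 (-0.94) and Dram1 (-0.79), which were above A-only barcodes, were below B-only barcodes. Bambi, a decoy receptor for BMP and TGF-beta ligands, fell by a log2 of -0.87, with 16.5, 13.8 and 43.4 CPM in both-high barcodes against 30.9, 30.2 and 63.9 CPM in B-only barcodes. With Tgfbi (-1.02) and Id1 (-0.37) it made 3 of 12 tested TGF-beta response genes that fell, and Tgfb2, a ligand, rose by 0.60. The lower genes also held Tpd52l1 (-0.80), the spindle gene Psrc1 (-0.73), the fatty acid enzyme Acsl4 (-0.69), the cyclin gene Ccnk (-0.68), Bspry (-0.68), Prxl2a (-0.63) and the signal peptidase subunit Sec11c (-0.63). Tip markers fell in 2 of 14 cases, Etv4, a target of FGF signalling (-1.60, with 1, 3 and 37 UMIs in both-high barcodes), and Id2 (-0.42). Of 15 type 2 markers outside the rule only Ctsh fell (-0.55). Sftpc, at 9064, 10669 and 3798 CPM in both-high and 13107, 13396 and 3359 CPM in B-only barcodes, was lower in both Epcam+ Icam+ libraries, higher in the Epcam+ one, and did not pass the test (log2 -0.33, SE 0.208, edgeR adjusted p = 0.465).

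Icam1, the gene of the protein used for the sort (chr9:21015985-21028817 in mm10), lay between the 2 neighbouring classes in every library. It had 216 and 204 CPM in both-high barcodes of the Epcam+ Icam+ libraries and 172 CPM in the Epcam+ library. A-only barcodes had 251, 248 and 210 CPM and B-only barcodes 169, 155 and 122 CPM. Both-high barcodes were thus lower than A-only barcodes by a log2 of -0.30 (SE 0.0574, edgeR adjusted p = 0.0133) and higher than B-only barcodes by 0.36 (SE 0.0583, edgeR adjusted p = 0.00472). Neither difference was called when 1 of the Epcam+ Icam+ libraries was left out, at -0.33 and -0.29 against A-only barcodes and 0.40 and 0.38 against B-only barcodes. Against B-only barcodes Icam1 was also not called with thinned classes (0.10), and its sign turned at the 90th percentile (-0.34). Icam1 shares 511 exonic bases with an antisense gene, as Hopx (412), Cdkn1c (625) and Cryab (252) do with genes on the opposite strand, so reads of these pairs may not be told apart. The sort acts on the protein, and its effect on these levels within the Epcam+ Icam+ libraries was not tested.

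Cell division genes were lower than in B-only barcodes in the fit of the Epcam+ Icam+ libraries. Whether the sorts differ in this contrast was not tested. The 22 genes of the G2 and mitosis list summed to 3084 and 2658 CPM in both-high barcodes of the Epcam+ Icam+ libraries and 4044 CPM in the Epcam+ library, against 4468, 4543 and 3865 CPM in B-only barcodes. A-only barcodes had 2702, 2420 and 3584 CPM, so in the Epcam+ Icam+ libraries the sum of both-high barcodes lay between those of the 2 neighbouring classes. With all 3 libraries 3 of the 22 fell against B-only barcodes, Ube2c (-0.72), Cdk1 (-0.60) and Hmgb2 (-0.39), and none rose. In the fit without the Epcam+ library 19 of 22 fell, where 2.87% of all 12574 genes did, among them the kinase gene Aurka (-1.18) and the cyclin gene Ccnb1 (-1.12). Ccnb1 had 27.5 and 39.2 CPM in both-high barcodes of these libraries, against 66.8 and 68.0 CPM in B-only barcodes. Against A-only barcodes the same fit called 2 of the 22 genes higher and 0 lower.

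Set against the midpoint of the 2 neighbouring classes on the log scale, the both-high profile had 1 gene that departed from it with all 3 libraries, Ndnf. That is 0.00784% of 12748 genes, and 961 had an unadjusted p under 0.05. DESeq2 called 3 genes. Ndnf, a secreted protein named as a neuron-derived neurotrophic factor (chr6:65671590-65712326 in mm10), had 318 and 321 CPM in both-high barcodes of the Epcam+ Icam+ libraries and 50.8 CPM in the Epcam+ library. A-only barcodes had 303, 279 and 50.7 CPM, B-only barcodes 142, 137 and 20.2 CPM and barcodes high in neither 194, 190 and 31.8 CPM. It was thus at the A-only level or above in every library, by a log2 of 0.62 over the midpoint (SE 0.0588, edgeR adjusted p = 9.79e-05). Ndnf was not called without the first (0.63) or the second (0.59) Epcam+ Icam+ library or with classes made from thinned counts (0.39). An equal mix of A-only and B-only RNA would lie at the arithmetic mean of their levels, which for Ndnf is 222, 208 and 35.5 CPM. B-only barcodes were deeper, so a sum weighted by depth would lie nearer the B-only level. Whether such sums are part of the class was not tested.

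Without the Epcam+ library, in which 22 of 70 both-high barcodes met the name of the class, 82 genes (0.652% of 12574) departed from the midpoint, 63 higher and 19 lower. The smaller fit has 2 libraries and the same test. Sftpc was above the midpoint by a log2 of 0.54, Ndnf by 0.64, Cryab by 0.58 and Ctnnd2, a delta catenin, by 0.53. Wherever A-only and B-only levels differ, this midpoint lies below their arithmetic mean. A level above it thus need not exceed that of an equal mix. Cryab had 75.7 and 88.7 CPM in both-high barcodes, 122 and 109 CPM in A-only and 26.6 and 21.4 CPM in B-only barcodes. Of the lists, 5 of 16 type 1 markers outside the rule (Emp2, Igfbp2, Gprc5a, Lmo7 and Col4a3) and 2 of 15 type 2 markers (Sftpc and Egfl6) were above the midpoint and none below, where 0.501% of all genes were above and 0.151% below. The rule asks for a high A and a high B at once, so markers of either programme are not independent of it in this contrast. For Sftpc the arithmetic mean of A-only and B-only barcodes, at equal weight, is 8102 and 8509 CPM, and both-high barcodes had 9064 and 10669 CPM. Weighting by depth would raise that mean, since B-only barcodes were deeper and higher in Sftpc. Immediate early genes lay below the midpoint in 5 of 14 cases, with Fosb at -1.15, Fos at -0.64 and Junb at -0.38. Cdkn1c was below it too (-0.31). Srgn, a gene of blood cells, was at 97.6 CPM in the first of these libraries, which holds the barcode rich in immune UMIs, and at 3.45 CPM in the second, and the part of that barcode in the 82 genes was not tested.

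The same fit without the Epcam+ library called more genes of both programmes against the single neighbours. Neither programme is independent of the rule in these contrasts. Against A-only barcodes 391 genes were called (3.11%), and 8 of 15 type 2 markers rose where 1.8% of all genes did. They were Sftpc (1.54), Egfl6 (1.19), Ctsh (0.51), Lpcat1 (0.73), the lipid transporter of lamellar bodies Abca3 (1.07), the protease Napsa (1.22), the lamellar body protein Lamp3 and the phosphate transporter Slc34a2. Lamp3 rests on 7 and 0 UMIs in both-high barcodes against 3 and 1 in A-only barcodes, and Slc34a2 on 4 and 0 against 0 and 0, so no fold is given for either. Against B-only barcodes 682 genes were called (5.42%), and 13 of 16 type 1 markers rose where 2.55% of all genes did, with the caveolin genes Cav1 (1.21) and Cav2 (0.63), Vegfa (0.45) and Gprc5a (0.66) among them. In the same contrast 7 of 15 type 2 markers fell and 1, Muc1, rose.

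**Figure D5:**
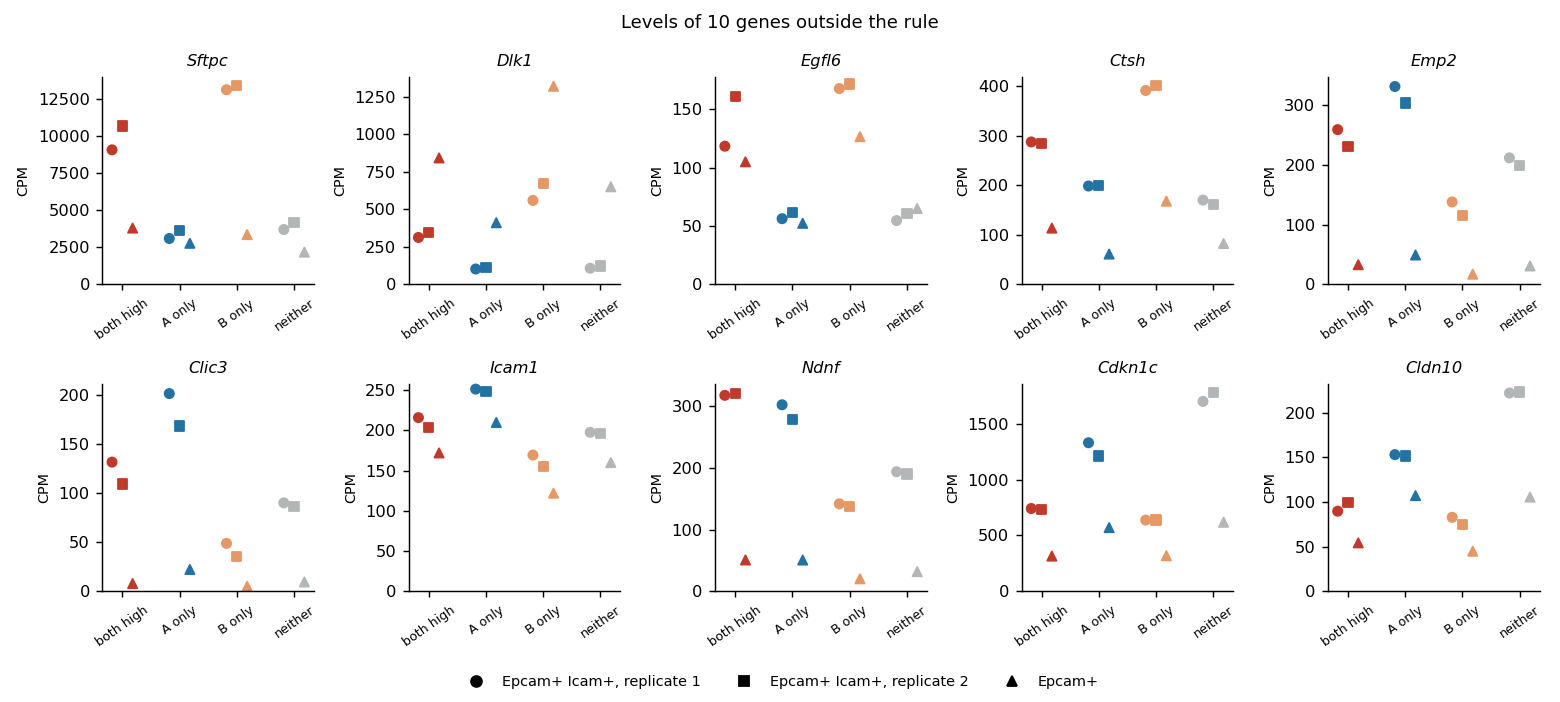
Levels in CPM of 10 genes outside the rule in the 4 classes (colours, both-high barcodes on the left) and 3 libraries (marker shapes). Dlk1, Ctsh, Emp2 and Icam1 lie between the A-only and B-only levels of the same library, Ndnf is at or above its A-only level and Cdkn1c near its B-only level.

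Against barcodes high in neither score, 85 genes were called (0.667%), 32 higher (0.251%) and 53 lower (0.416%), and RLE scaling gave 60 higher and 40 lower. The total was 15 without the first Epcam+ Icam+ library, 20 without the second and 400 without the Epcam+ library. Sftpc (1.12), Dram1 (1.04), Egfl6 (0.99), Dlk1 (0.98), Slco2a1 (0.79), Ctnnd2 (0.78), Ndnf (0.69) and Foxp2 (0.67), a forkhead factor of distal lung epithelium, were higher. Foxp2 had 542 and 630 CPM in both-high barcodes of the Epcam+ Icam+ libraries and 261 CPM in the Epcam+ library, against 323, 317 and 197 CPM in barcodes high in neither. It was the called gene among 17 lung epithelial transcription factors. Of the type 1 markers 2 of 16 rose, Col4a3 (1.19) and Igfbp2 (0.33), and of the type 2 markers 3 of 15 rose, Sftpc, Egfl6 and Ctsh (0.64), and 1 fell, Lyz2 (-3.91), with 3, 1 and 4 UMIs in both-high barcodes. Lyz2 stood at 0.73 with Ager left out of A, and at the 90th percentile, with 8 both-high barcodes in all, Foxp2 (-0.34) and Igfbp2 (-0.15) had the opposite sign. In the fit without the Epcam+ library 400 genes (3.18%) were called, and 7 of 16 type 1 and 8 of 15 type 2 markers rose, where 1.73% of all genes did, and 1 type 2 marker, Lyz2, fell. Markers of both programmes are not independent of the rule in this contrast either.

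Cdkn1c, at 741, 731 and 315 CPM in both-high barcodes, had its highest levels in barcodes high in neither, at 1701, 1783 and 618 CPM (log2 -1.20, SE 0.0755, edgeR adjusted p = 1.8e-07). Kcnk2 (-1.23), Cldn10 (-1.20), Smoc2 (-1.03) and Tgfb3 (-0.99) were lower as well. Cd74, a chaperone of antigen presentation, was lower at -2.16 on the log2 scale, and its value was 0.52 when barcodes with 10 or more immune UMIs were left out. Erythroid genes fell in 4 of 4 tested cases, among them Hbb-bt (-5.14). Their list summed to 7.32, 13.8 and 38.9 CPM in both-high barcodes and to 11.3, 172 and 1176 CPM in barcodes high in neither, so that barcodes with blood RNA lay in the larger class. Igfbp2, which binds insulin-like growth factors, had 599, 618 and 916 CPM in both-high barcodes and 425, 429 and 829 CPM in barcodes high in neither.

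The difference between both-high barcodes and those high in neither was itself compared between the 2 Epcam+ Icam+ libraries and the 1 Epcam+ library, with 64 genes called (0.502%), 43 (0.337%) with a larger and 21 (0.165%) with a smaller difference in the Epcam+ Icam+ libraries. RLE scaling gave 23 and 27. The total was 3 with thinned classes, 10 at the 90th percentile, 17 with split UMIs, 25 with Ager left out of A and 33 in DESeq2. The Epcam+ sort is 1 library, so the spread in this test comes from the 2 Epcam+ Icam+ libraries alone and the p-values carry none for the Epcam+ sort. Sftpc was 9064 and 10669 CPM in both-high barcodes against 3701 and 4149 CPM in barcodes high in neither in the Epcam+ Icam+ sort, and 3798 against 2178 CPM in the Epcam+ sort, which set against each other gave 0.60 on the log2 scale. The same value was 1.23 for Dlk1 and 1.01 for Col18a1, a basement membrane collagen gene. For mitotic genes it had the other sign, with 7 of 22 G2 and mitosis genes smaller and none larger in the Epcam+ Icam+ libraries, Cdc20 by -1.04 and Ccnb1 by -0.91 among them. The Epcam+ sort has 1 library, made with another Cell Ranger version, and the thresholds differed between the sorts, so sort, library and threshold cannot be told apart.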

How the data were processed

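Per the labels, 3 libraries of 10x Genomics 3' v3 single-cell RNA sequencing were measured, from E14.5 mouse lung cells sorted as Epcam+ Icam+ (2) or Epcam+ (1). The authors deposited unnormalized UMI counts, made with Cell Ranger. Per the submitters' processing notes this was version 2.1.1 against mm10, and per the file headers version 5.0.1 for the Epcam+ Icam+ libraries, with 3.0.2 for the other. Gene tables held 32285 and 31053 genes, and the 30406 shared Ensembl IDs were used. The lowest barcode had 500 UMIs, so barcodes had been thresholded before deposit. No correction for free RNA was applied here.

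The members and gene lists were chosen with earlier results of these data known. The rule used total UMIs over the shared genes. Counts were summed per class and library into 12 profiles, with 40 to 1144 barcodes each. The 7 rule genes stayed in library sizes and out of the tests. edgeR 4.0.16 in R 4.3.3 (TMM, filterByExpr, quasi-likelihood F test, Benjamini-Hochberg at 0.05 over 12748 genes) was fitted to all profiles with library as a block, since classes of 1 library come from the same cell suspension. The fit left 6 residual degrees of freedom, and that for the difference between sorts, with class by sort, 3, all from the Epcam+ Icam+ libraries. The SE is the log2 fold change divided by the square root of F. Scripts were tested on simulated data. Levels are CPM of the sums. Lists are described by counts and medians, without a set test.

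Named genes were Icam1, Nkx2-1, Sox9, Sftpc and Krt8, up to 10 per direction against A-only, B-only and the midpoint (6 against neither and between sorts) by log2 fold change among called genes averaging 20 CPM or more whose sign was shared by every library (not asked between sorts), without gene models, mitochondrial, ribosomal or globin genes, and up to 4 called genes per list. 2 genes that this rule picked are not reported here. Genes named from the fit without the Epcam+ library were chosen after their values were seen. Ndnf and Cdkn1c were likewise added in every contrast of the main fit after their values were seen, whether or not the rule picked them. Doublet scores came from scrublet in scanpy 1.11.5. Its automatic threshold marked 1, 3 and 21 barcodes and was set aside. Barcodes with the highest scores, in proportion to library size (180, 164 and 109), were left out as an alternative only. Shares have exact Clopper-Pearson intervals at 95%. Alternatives were RLE scaling, DESeq2 1.42.0, no gene filter, no block, other thresholds and depths, thinning to 5000 UMIs, splitting each barcode's UMIs and leaving out each library. 2 were added after seeing the data, score A without Ager and leaving out barcodes with 10 or more immune UMIs.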

Additional observations from a re-analysis of the deposited data

Results flagged for a closer look

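Of the 64 genes called for a different distance of both-high barcodes from barcodes high in neither in the 2 sorts, the 20 picked by the naming rule are given. Each value is the log2 difference in the Epcam+ Icam+ libraries minus that in the 1 Epcam+ library, by an interaction term in edgeR with adjusted p under 0.05, and its cause was not tested. The test holds no spread of the Epcam+ sort, which is 1 library, so the values set 2 libraries against 1. Larger in the Epcam+ Icam+ sort were Dlk1 (1.23), Sftpc (0.60), Igfbp2 (0.44), Foxp2 (0.51), Col18a1 (1.01), the FGF target Etv5 (0.75), the semaphorin and VEGF receptor Nrp1 (1.44), Cryab (1.73) and the cartilage collagen gene Col9a3 (1.44). Dlk1 had 314 and 348 CPM in both-high barcodes against 108 and 123 CPM in barcodes high in neither in the Epcam+ Icam+ libraries, and 844 against 651 CPM in the Epcam+ library. Cryab had 75.7 and 88.7 CPM against 48.5 and 48.0 CPM in the Epcam+ Icam+ libraries, with 5.92 against 11.3 CPM in the Epcam+ library, so its direction was opposite there.

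Smaller in the Epcam+ Icam+ sort were the mitotic genes Sgo1 (-1.21), Nusap1 (-1.04), Cdc20 (-1.04), Ccnb1 (-0.91), Cenpa (-0.87) and Ube2c (-0.84), the histone gene Hist1h2bc (-0.93), the smooth muscle gene Tagln (-0.73) and Klf6 (-0.34). Ube2c had 238 and 208 CPM in both-high barcodes against 366 and 378 CPM in barcodes high in neither in the Epcam+ Icam+ libraries, and 481 against 420 CPM in the Epcam+ library. The sign of Tagln turned with thinned classes (0.17) and with split UMIs (0.26), and with thinned classes that of Klf6 (0.18) and Col9a3 (-0.15) did. At the 90th percentile Dlk1 (-0.56), Col9a3 (-11.2), Sgo1 (0.57) and Nusap1 (9.65) turned. Ube2c, Cdc20, Nusap1 and Tagln share exonic bases with genes on the opposite strand.

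2 of the 20 values belong to genes whose level stands apart in a single class and library. Ifitm1 (5.70) had 178 CPM in both-high barcodes of the first Epcam+ Icam+ library, 1.15 CPM in the second and 1.97 CPM in the Epcam+ library, and without barcodes of 10 or more immune UMIs its value was -1.11, and with thinned classes -1.89. Cldn5 (7.08), an endothelial gene, had 1.22, 1.15 and 0.493 CPM in both-high barcodes and 0.132, 0.291 and 11.04 CPM in barcodes high in neither. Its highest level was thus in the barcodes high in neither of the Epcam+ library, but both sorts enter the value. The whole endothelial list had 3, 2 and 1 UMIs in both-high barcodes, so this value rests on very few molecules there.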

How the results depend on the processing

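The number of called genes depended strongly on the libraries and less on the tool. Leaving out 1 library gave 13 to 391 genes against A-only barcodes (171 with all), 8 to 682 against B-only (307), 15 to 400 against neither (85) and 0 to 82 against the midpoint (1), with the highest count each time without the Epcam+ library. For the difference between sorts no library could be left out. The library is the block. With no replicate block 0 genes were called against A-only, B-only, neither and the midpoint (346, 322, 341 and 238 at an unadjusted p under 0.05).

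With every gene that had a UMI the counts were 494, 1062, 501, 106 and, between sorts, 326. Classes made from thinned barcodes gave 96, 136, 52, 4 and 3, and classes from 50% of the UMIs with profiles from the rest gave 52, 121 and 32 and, between sorts, 17. DESeq2 gave 276 against A-only, 176 against neither, 3 against the midpoint and 33 between sorts. With Ager left out of A the counts were 92 against B-only, 437 against neither, 3 against the midpoint and 25 between sorts, and the ratio of observed to expected barcodes in the Epcam+ library was 0.795. Leaving out barcodes with immune UMIs gave 2 against the midpoint.

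At the 90th percentile, where profiles hold 4, 1 and 3 barcodes, the ratios were 0.196, 0.0558 and 0.140, and the counts 185 against B-only, 134 against neither, 127 against the midpoint and 10 between sorts. The signs that turned there were those of Kcnk2 against A-only (0.33), of Icam1 (-0.34), Cldn4 (-0.58) and Krt18 (-0.38) against B-only, and of Ctnnd2 (-0.00927), Kcnk2 (0.26), Igfbp2 (-0.15), Clu (-0.32), Thbs1 (-0.55) and Foxp2 (-0.34) against neither. Between sorts they were Ifitm1 (-0.30), Col9a3 (-11.2), Dlk1 (-0.56), Sgo1 (0.57) and Nusap1 (9.65). With thinned classes Fos against A-only (0.051) and, between sorts, Ifitm1 (-1.89), Col9a3 (-0.15), Klf6 (0.18) and Tagln (0.17) turned, and with split UMIs Tagln did (0.26). Without barcodes of immune UMIs Cd74 against neither (0.52) and Ifitm1 between sorts (-1.11) turned, and without Ager Lyz2 against neither did (0.73). The causes were not tested.

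The ratios moved by less than their intervals under thinning, a minimum of 10000 UMIs, omission of high doublet scores, split UMIs and the other denominator. RLE scaling moved the median of all genes by at most 0.056. The small number of both-high barcodes and their median of 3 B molecules limit the precision in the Epcam+ Icam+ libraries.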

Other observations

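Both-high barcodes of the Epcam+ Icam+ libraries, in the fit without the Epcam+ library, held more of some replication genes than barcodes high in neither. Of 22 S phase genes 7 rose and none fell, among them Cdc6 (0.93), Ung (0.98), Mcm6 (0.51) and Pcna (0.33), where 1.73% of all 12574 genes were higher, while 10 of 22 G2 and mitosis genes fell and none rose, among them Cdc20 (-0.90) and Ccnb2 (-0.83), where 1.45% of all genes were lower. In all 3 libraries the S phase list summed to 1698, 1418 and 2610 CPM in both-high barcodes and to 1301, 1257 and 2301 CPM in barcodes high in neither. The fit of all 3 libraries called no S phase gene in this comparison. In B-only barcodes the S phase list summed to 1678, 1640 and 2499 CPM, and in A-only barcodes to 1305, 1359 and 2473 CPM. Against B-only barcodes the fit without the Epcam+ library called 0 S phase genes higher and 1 lower, so the S phase level was not particular to both-high barcodes. The G2 and mitosis list was lower still in A-only barcodes of the Epcam+ Icam+ libraries, at 2702 and 2420 CPM against 3084 and 2658 CPM in both-high barcodes.

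In the same fit 5 of 14 tip markers rose against barcodes high in neither, Etv5 (0.97), Bmp4 (0.85), Clu (0.64), Dusp6 (0.44) and Id2 (0.31), and 1, Sox11, fell (-0.31). Of all genes 1.73% were higher and 1.45% lower. The tip list summed to 1138 and 1216 CPM in both-high barcodes of the Epcam+ Icam+ libraries and 1310 and 1326 CPM in B-only barcodes. It summed to 910 and 905 CPM in A-only barcodes and 937 and 937 CPM in those high in neither. Against B-only barcodes 0 tip markers were called higher and 3 lower, so the rise was not particular to both-high barcodes.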
